A study of Arabidopsis thaliana with 7 samples.

Results

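Wall polysaccharide genes were followed in Arabidopsis flowers that differ in 2 auxin response factor genes, ARF6 and ARF8, and in auxin treatment. The genes were taken by symbol: a probe set belonged to the group when its only gene symbol was a numbered XTH, CESA, CSL, FLA, AGP, PME, GAUT, GATL or IRX name and its intensity exceeded 248.1 on at least 1 of the 7 arrays. This gave 13 probe sets of 13 genes, among 13021 probe sets past the same intensity limit. They were the cellulose synthase-like genes CSLA01, CSLA03, CSLC04, CSLC5, CSLC6, CSLC12 and CSLD2, the xyloglucan-modifying genes XTH16, XTH32 and XTH33, the xylan gene IRX15-L, the pectin methylesterase gene PME61 and the galacturonosyltransferase gene GAUT15. A further 7 symbols of these families lay below the limit. No probe set was named here for a CESA, FLA, AGP or GATL gene, so the group holds genes of wall polysaccharides and no wall glycoprotein gene.

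Flowers of stages 1 to 14 came from plants grown for 6 weeks in long days. The 7 groups hold 1 array each: wild-type Columbia without a spray, after a mock spray or after a spray of indole-3-acetic acid (IAA, the main natural auxin), and arf6/arf6 ARF8/arf8 and arf6 arf8 (the double mutant) each untreated or sprayed with IAA. The mock solution was 1% methanol with 0.05% Tween-20, the IAA spray held both as well, and sprayed flowers were harvested after 30 minutes. The labels give 10 µM IAA where the series text gives 10 mM, and they give ARF8 as the heterozygous gene of the intermediate genotype where the series text gives ARF6. The labels do not say how many plants went into an array.

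The plant primary wall is built of cellulose fibrils tied by hemicelluloses and embedded in pectin. Xyloglucan, the main hemicellulose of growing dicot tissues, has a glucan backbone made in the Golgi by CSLC proteins, and XTH enzymes cut and rejoin it in the wall. CSLA proteins make mannan backbones, GAUT proteins belong to a family that builds pectin, and pectin methylesterases remove methyl groups from it once it is in the wall. ARF6 and ARF8 promote the growth of petals, stamen filaments and the style in opening flowers.

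Intensities are the authors' scaled linear signals, with a 10th percentile of 26.9 on the mock array and 9.4 to 17.89 on the other 6. Differences were fitted with limma over all 13021 probe sets, with genotype and treatment as additive terms and p-values adjusted by Benjamini-Hochberg over all of them. With 1 array per group the spread comes from how well genotypes and treatments add, and single values carry no error of their own. The threshold was an adjusted p of 0.05, and log2 differences are given ± SE. None of the 13 genes fell below the floor of 64.9 that was set on dim signals.

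In double-mutant flowers 6 of the 13 genes differed from wild type, 5 of them lower. CSLA01, CSLC04, CSLA03, XTH33 and CSLC5 fell, to between 28.7% and 54.1% of wild type in the fit, and PME61 rose 1.92-fold. Over all probe sets 17.1% were called in this comparison, 7.96% lower and 9.14% higher. The median log2 difference was -0.43 for the 13 genes and 0.02 for all probe sets. On 10 of the 13 genes both double-mutant arrays lay below all 3 wild-type arrays, a pattern held by 19.7% of all probe sets. For PME61 and XTH32 both double-mutant arrays lay above them, as for 25% of all probe sets, and XTH16 overlapped. CSLA03, XTH33 and GAUT15 exceeded the limit of 248.1 on wild-type arrays alone, so they could enter the test only by being high there. IRX15-L exceeded it on the wild-type mock array and the arf6/arf6 ARF8/arf8 arrays, and on no double-mutant array. The counts above draw on all of these genes. Of the 9 genes above the limit in every genotype 3 fell, PME61 rose, and 6 had both double-mutant arrays below wild type. The shares given above cover all tested probe sets. No share was computed for probe sets above the limit in every genotype, so these counts have no like share to be set against. With no filter on dim probe sets all 6 lost the call (limma, adjusted p from 0.0678 to 0.19). Only 2 of all probe sets were called then, against 2227 with the filter. Without the double-mutant IAA array CSLA03, XTH33 and CSLC5 lost the call, and fewer of all probe sets were called than with it. In whole flowers, fewer cells of a type and less RNA per cell cannot be told apart.

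**Figure D1:**
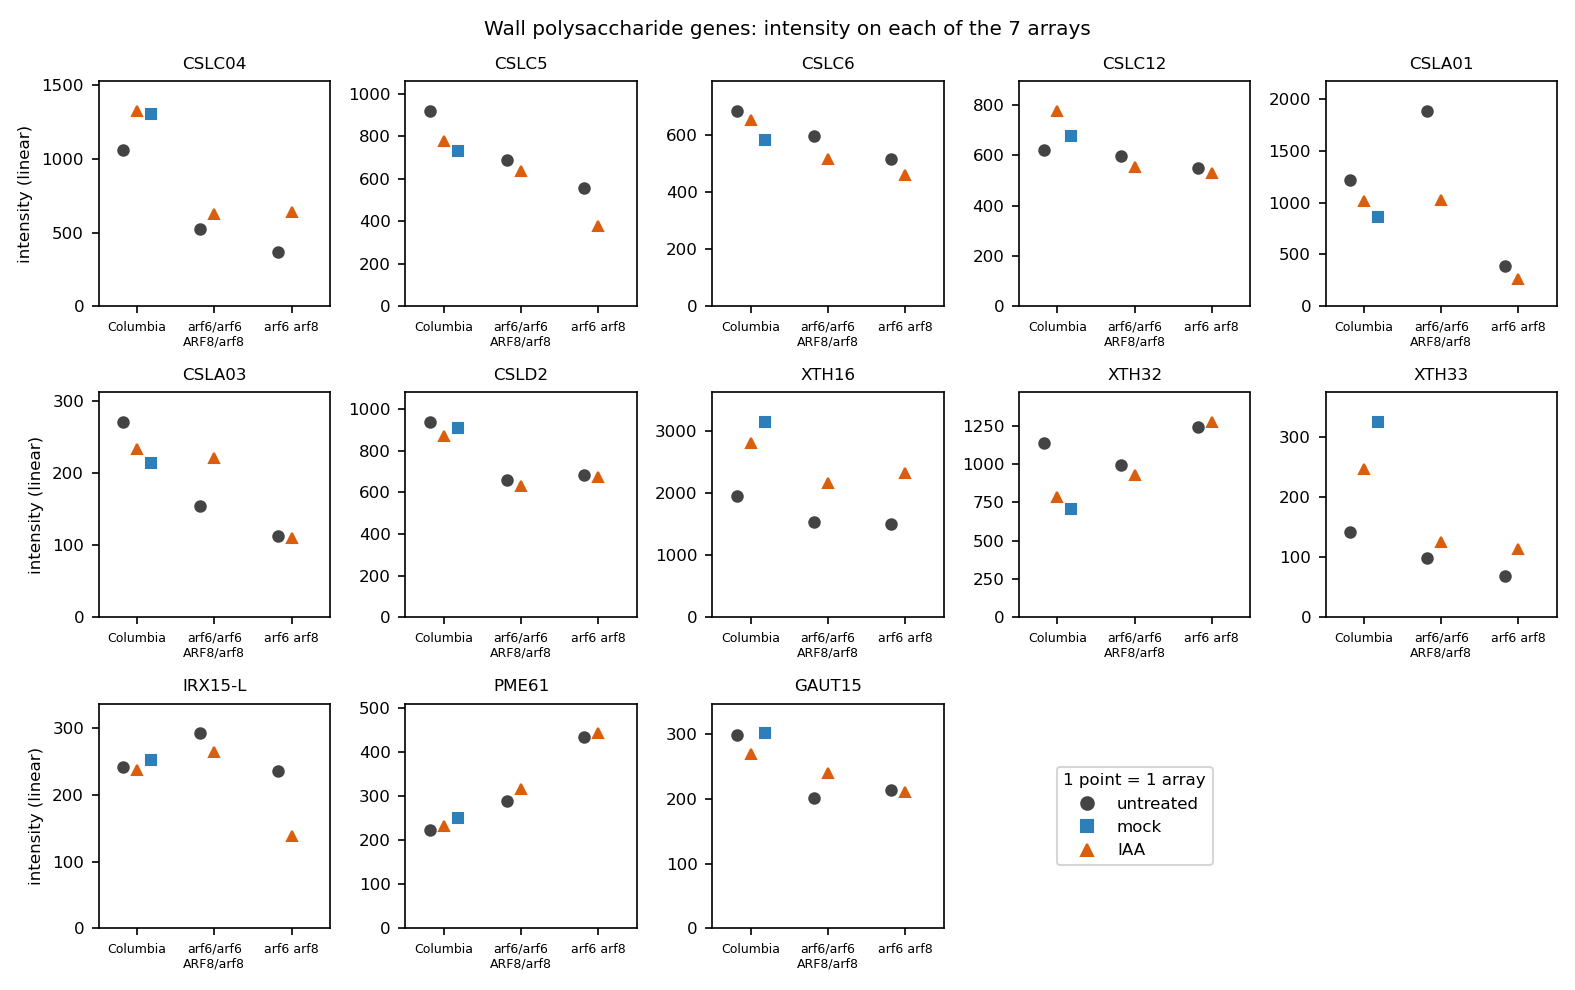
Intensity (linear, arbitrary units, axis from 0) of each of the 13 wall polysaccharide genes on the 7 arrays, by genotype, with circles for untreated, squares for mock and triangles for IAA. Both arf6 arf8 points lie below every Columbia point in 10 panels and above every Columbia point for PME61 and XTH32.

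Among the xyloglucan backbone genes, CSLC04 showed the largest difference. Its intensity in wild type was 1061.8 untreated, 1306.7 with mock and 1327.3 with IAA. It was 524.4 untreated and 628.1 with IAA in arf6/arf6 ARF8/arf8, and 367.4 and 640.8 in the double mutant. All 4 mutant arrays were thus below the 3 wild-type arrays, while the mutant genotypes overlapped each other. CSLC04 fell in the double mutant by 1.29 ± 0.17 on the log2 scale and in arf6/arf6 ARF8/arf8 by 1.05 ± 0.17 (limma, adjusted p = 0.00468 and 0.0279). The mutants' difference from each other was -0.24 ± 0.17, with a 95% interval of -0.65 to 0.16 (limma, adjusted p = 0.569).

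CSLC5, of the same subfamily, gave 919.1 untreated, 730.5 after mock and 776.2 after IAA in wild type. The values were 686.7 and 638 (untreated and IAA) in arf6/arf6 ARF8/arf8 and 555.4 and 376.6 in the double mutant. The 3 genotypes did not overlap and stood in the order wild type, arf6/arf6 ARF8/arf8, double mutant. Its fall in the double mutant was 1.85-fold (log2 -0.89 ± 0.16, limma adjusted p = 0.0125), and the value for arf6/arf6 ARF8/arf8 was -0.35 ± 0.16 (limma, adjusted p = 0.264). Without the double-mutant IAA array the call was lost, at a log2 difference of -0.69. With no filter on dim probe sets it was lost as well (limma, adjusted p = 0.159).

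CSLC6 ranged from 582.2 to 683.6 in wild type, from 514.7 to 597.1 in arf6/arf6 ARF8/arf8 and from 459.9 to 515.1 in the double mutant. CSLC12 ranged from 620.1 to 775.8, from 551.9 to 595.4 and from 527.1 to 548.1 in the same order. In the double mutant they differed from wild type by -0.46 ± 0.13 and -0.37 ± 0.16 on the log2 scale, and neither passed the threshold (limma, adjusted p = 0.057 and 0.151). From arf6/arf6 ARF8/arf8 the double mutant differed by -0.19 ± 0.13 and -0.09 ± 0.16 (limma, adjusted p = 0.567 and 0.832), and for CSLC6 these genotypes overlapped. With the filter set on the mean of the 7 arrays, an alternative chosen after seeing the data, CSLC6 passed (limma, adjusted p = 0.0426).

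RefSeq lists 5 CSLC genes, and the remaining member is on the array under the symbol ATCSLC08, which the symbol rule leaves out. It was looked up after the values of the other genes were known. ATCSLC08 gave 718.4 untreated, 618.1 after mock and 786.3 after IAA in wild type, 570.8 and 520.6 in arf6/arf6 ARF8/arf8, and 495.1 and 386.2 in the double mutant. It fell 1.72-fold in the double mutant (log2 -0.78 ± 0.16, limma adjusted p = 0.0196). Without the IAA array of wild type or of the double mutant its adjusted p was 0.129 and 0.109, and over all alternatives its call was lost in 4 of 16. Across the whole subfamily, then, 3 of 5 genes fell in the double mutant, against 7.96% of all probe sets called lower. In 5 of 5 both double-mutant arrays were below every wild-type array (19.7% of all probe sets), and 1 of 5, CSLC04, fell in arf6/arf6 ARF8/arf8 (1.62%). Without the wild-type IAA array CSLC04 and CSLC5 passed in the double mutant, and without the double-mutant IAA array CSLC04 did.

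**Figure D2:**
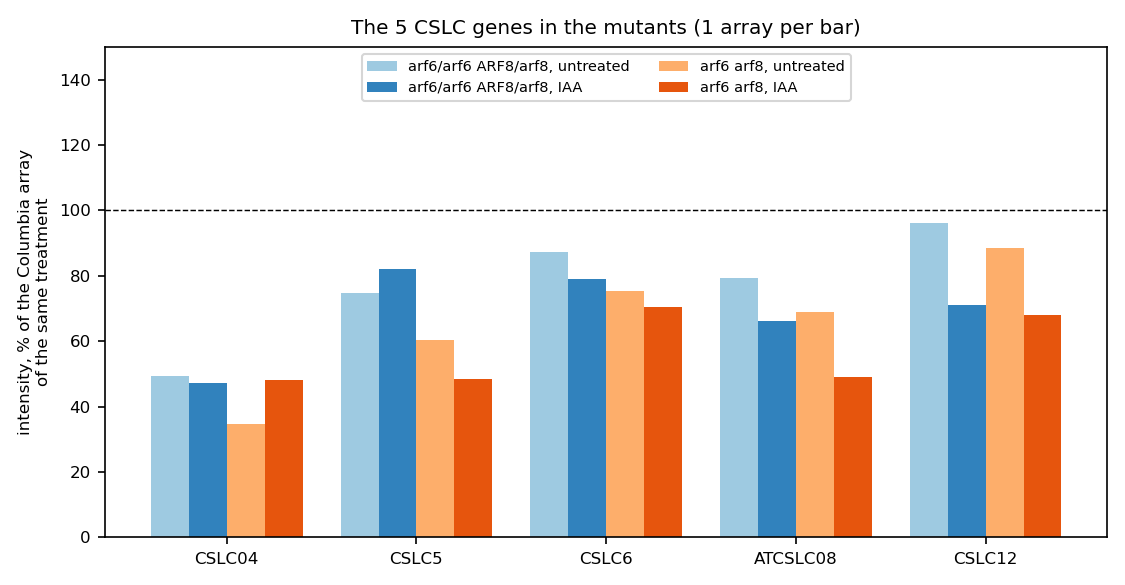
Intensity of the 5 CSLC genes on the mutant arrays as a percentage of the Columbia array of the same treatment (bars, 1 array each, axis from 0; the dashed line marks equality with Columbia). All 20 bars lie below the line, from 34.6% for CSLC04 in untreated arf6 arf8 to 96.0% for CSLC12 in untreated arf6/arf6 ARF8/arf8.

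RefSeq lists 9 genes of the mannan backbone family CSLA. The 2 named and tested here, CSLA01 and CSLA03, fell in the double mutant, where 7.96% of all probe sets were called lower. CSLA03 could enter the test only through a wild-type array. CSLA01 gave 1216.1 untreated, 858.8 after mock and 1015.2 after IAA in wild type. It gave 1884.3 untreated and 1024 with IAA in arf6/arf6 ARF8/arf8, the former being the highest of the 7 arrays. In the double mutant it gave 389.9 and 261.5, the lowest. CSLA01 fell 3.48-fold in the double mutant against wild type (log2 -1.80 ± 0.17) and 4.35-fold against arf6/arf6 ARF8/arf8 (log2 -2.12 ± 0.17; limma, adjusted p = 0.00147 and 0.00286). In arf6/arf6 ARF8/arf8 against wild type the value was 0.32 ± 0.17 (limma, adjusted p = 0.349), and 0.088 to 0.56 with an array left out. CSLA01 was the only gene of the 13 called between the mutant genotypes, where 1.25% of all probe sets were called, and that call was lost without either double-mutant array (limma, adjusted p = 0.0726 and 0.0899).

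CSLA03, which contributes to glucomannan in stems, gave 270.8, 214 and 233 in wild type (untreated, mock, IAA). It gave 153.8 and 220 in arf6/arf6 ARF8/arf8 and 113.1 and 109.4 in the double mutant. The double mutant was below both other genotypes, and arf6/arf6 ARF8/arf8 overlapped wild type. CSLA03 passed the intensity limit through the untreated wild-type array alone. It fell 2.26-fold in the double mutant (log2 -1.18 ± 0.19, limma adjusted p = 0.00996). Without the untreated or the IAA array of the double mutant its adjusted p was 0.0524 and 0.0977, and with a floor at 157.1, which lies above both double-mutant values, it was -0.68 on the log2 scale (limma, adjusted p = 0.0648).

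CSLD2 is known for its part in root hair growth. Wild type gave 939.7, 909.7 and 870.4 (untreated, mock, IAA), arf6/arf6 ARF8/arf8 661.1 and 630.5, and the double mutant 685.7 and 676.2. The log2 differences from wild type were -0.49 ± 0.13 in arf6/arf6 ARF8/arf8 and -0.41 ± 0.13 in the double mutant (limma, adjusted p = 0.1 and 0.0731). Neither passed, although no mutant array reached the wild-type range.

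Of the 3 XTH genes, XTH33 was called in the double mutant. XTH33 gave 141.4 untreated, 325 after mock and 245.9 after IAA in wild type. It gave 99.4 and 125.3 in arf6/arf6 ARF8/arf8 and 68.7 and 113.1 in the double mutant. Every mutant array was below every wild-type array, and within each genotype the sprayed arrays were above the untreated array. XTH33 passed the intensity limit through the wild-type mock array alone. It fell in the double mutant by 1.08 ± 0.16 (limma, adjusted p = 0.00676), and the value for arf6/arf6 ARF8/arf8 was -0.74 ± 0.16 (limma, adjusted p = 0.0625). Without the double-mutant IAA array the adjusted p was 0.0557, and with the floor at 157.1, above all mutant values, the log2 difference was -0.32 (limma, adjusted p = 0.291).

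XTH16 gave 1945.2 untreated, 3140.5 after mock and 2805.9 after IAA in wild type, 1536.4 and 2156.9 in arf6/arf6 ARF8/arf8, and 1502.7 and 2316.8 in the double mutant. The genotypes overlapped, and the untreated array was the lowest within each. Its log2 differences from wild type were -0.32 ± 0.13 in the double mutant and -0.36 ± 0.13 in arf6/arf6 ARF8/arf8 (limma, adjusted p = 0.135 and 0.189).

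XTH32, of the XTH subgroup thought to hydrolyse rather than rejoin xyloglucan, had its highest values in the double mutant. Wild type gave 1135.1 untreated, 709.4 with mock and 786.4 with IAA. The mutants gave 992.5 and 926.2 in arf6/arf6 ARF8/arf8 and 1242.7 and 1274.5 in arf6 arf8, where both arrays were above all others. The fitted double-mutant difference of 0.41 ± 0.17 did not pass (limma, adjusted p = 0.14). Leaving out the IAA array of wild type gave 0.16, and leaving out its untreated array gave 0.66.

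Of the pectin genes PME61 was called and GAUT15 was not. PME61, a pectin methylesterase gene that RefSeq also lists as PME35 and that is known for a role in stem strength, gave 223.4, 250.7 and 232.9 in wild type (untreated, mock, IAA). It gave 287.7 and 315.1 in arf6/arf6 ARF8/arf8 and 434.6 and 443.5 in the double mutant. The genotypes did not overlap, with the double mutant highest. PME61 rose in the double mutant by 0.94 ± 0.13 (limma, adjusted p = 0.00536), and its value for arf6/arf6 ARF8/arf8 was 0.40 ± 0.13 (limma, adjusted p = 0.15). GAUT15 ranged from 270.4 to 302.5 in wild type, from 201 to 239.6 in arf6/arf6 ARF8/arf8 and from 210.3 to 213.3 in the double mutant, where its log2 difference was -0.43 ± 0.15 (limma, adjusted p = 0.0969).

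IRX15-L acts with its near relative IRX15 in making secondary-wall xylan. It gave 241.8, 252.2 and 237.4 in wild type (untreated, mock, IAA), 292.7 and 263.8 in arf6/arf6 ARF8/arf8, and 235 and 137.7 in the double mutant. The double-mutant IAA array stood alone at the low end, while the untreated one was close to wild type. The fitted double-mutant difference was -0.41 ± 0.20 (limma, adjusted p = 0.193).

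**Figure D3:**
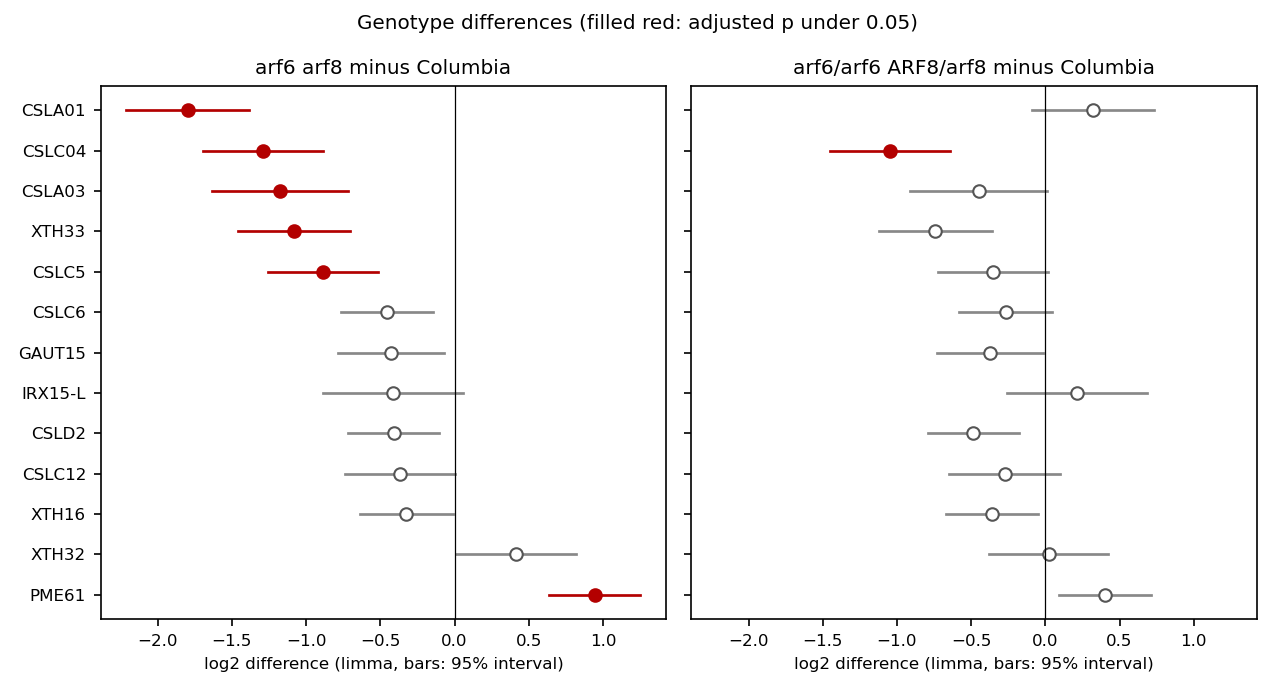
Log2 difference from Columbia for arf6 arf8 (left) and arf6/arf6 ARF8/arf8 (right), from limma over all 7 arrays, with 95% intervals; filled red points have an adjusted p under 0.05. On the left 5 genes are called lower and PME61 higher, on the right CSLC04 lower.

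In arf6/arf6 ARF8/arf8 against wild type 1 of the 13 genes, CSLC04, was called, where 2.76% of all probe sets were called and 1.62% were called lower. The genes with the largest values in the other direction were PME61, CSLA01 and IRX15-L, none past the threshold. The median log2 difference was -0.35 for the 13 genes and 0.02 for all probe sets. Both arrays were below wild type for 6 genes, CSLC04, CSLC5, CSLC12, CSLD2, GAUT15 and XTH33 (15.9% of all probe sets), and above it for PME61 and IRX15-L (21.2%). CSLA03, CSLC5, CSLC6, CSLC12 and XTH33 stood in the order wild type, arf6/arf6 ARF8/arf8, double mutant among both the untreated and the IAA arrays, which held for 11.7% of all probe sets. PME61 stood in the reverse order (13.2%). CSLA03, XTH33 and GAUT15 could enter the test only by exceeding the intensity limit on wild-type arrays, and these counts draw on them. Both mutant comparisons use the same wild-type arrays. The CSLC04 call was lost without the wild-type untreated array (limma, adjusted p = 0.0721) and without the untreated or the IAA array of arf6/arf6 ARF8/arf8 (0.0551 and 0.134), and it lay between 0.0279 and 0.134 over all arrays left out. With a floor at 157.1 it was 0.0515.

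Some markers of flower cell types differed between genotypes and others did not pass the test. Of 17 pollen markers 5 were on named probe sets. Their summed intensity was 1730.8 to 2293.6 in wild type, 1219 to 1344.3 in arf6/arf6 ARF8/arf8 and 990 to 1155.5 in the double mutant. AT59 was the largest part of each sum. ANX1 and MGH3, below the intensity limit, overlapped between genotypes. ANX1 was 77 to 202.4 in wild type and 84.1 to 97.6 in the double mutant, and MGH3 17.4 to 192.6 and 128.2 to 141.1. Of the 3 tested, ACT12 did not pass in the double mutant (limma, adjusted p = 0.244), and AT59 and ANX2, the latter above the intensity limit in wild type alone, fell, by 1.09 ± 0.17 and 1.48 ± 0.25 (limma, adjusted p = 0.00815 and 0.0107; 0.0633 and 0.0912 without the double-mutant IAA array). The tapetum marker AMS, 1 of 18, was 123.9 to 217.1 in wild type, 292.2 to 374.6 in arf6/arf6 ARF8/arf8 and 321.1 to 387.8 in the double mutant. AMS exceeded the intensity limit on mutant arrays alone. The nectary marker SWEET9, 1 of 4, was 1460.6 to 1781.9, 409.6 to 518.9 and 82.6 to 83.5 in the same order. The markers of dividing cells, 2 of 6, summed to 889.7 to 1054.8, 956.1 to 1128 and 876.1 to 943.1, which overlap, and neither AUR1 nor HTR12 passed in the double mutant (limma, adjusted p = 0.71 and 0.67). Of 14 floral organ genes only SPT was named, at 395.1 to 486.4, 569.7 to 600.2 and 622.9 to 801.3. None of these markers was at 0 on any array, and their part in the wall gene differences was not tested.

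After spraying, none of the 13 genes passed the test. For IAA against untreated over the 3 genotypes limma called 0 of 13 (1.08% of all probe sets), and 5 genes had an unadjusted p under 0.05, as did 15.9% of all probe sets. For mock against untreated in wild type it called 0 of 13 (0.753% of all probe sets), with 3 genes at an unadjusted p under 0.05 (17% of all probe sets). For IAA against mock it called 0 of 13 (0.177%), with 1 gene at an unadjusted p under 0.05 (10.6%). The largest differences above 0 were those of XTH33, XTH16 and CSLC04 in both the IAA and the mock comparison. CSLC04, PME61, XTH16 and XTH33 were higher in all 4 sprayed arrays than in the untreated array of their genotype. That pattern was held by 14.5% of all probe sets. In the other direction 5 genes were lower with IAA in all 3 genotypes, CSLA01, CSLC5, CSLC6, CSLD2 and IRX15-L (20.8% of all probe sets). Of these, all but IRX15-L were lower after mock as well.

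XTH33 had a fitted IAA difference of 0.62 ± 0.13 and a mock difference of 1.11 ± 0.21 (limma, adjusted p = 0.0904 and 0.0727). Its log2 ratio over untreated in wild type was 1.20 for mock and 0.80 for IAA. It was 0.33 with IAA in arf6/arf6 ARF8/arf8 and 0.72 in the double mutant. XTH33 was tested only because the mock array exceeded the intensity limit, and its mock difference draws on that same array. The mock array is also the one with the raised low end, and the part of that was not tested.

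XTH16 had a fitted IAA difference of 0.55 ± 0.11 and a mock difference of 0.70 ± 0.17 (limma, adjusted p = 0.0785 and 0.12). Its ratios spanned a narrow range: 0.69 with mock, and with IAA 0.53, 0.49 and 0.62 in wild type, arf6/arf6 ARF8/arf8 and the double mutant. IAA over mock in wild type was -0.16 for XTH16 and -0.40 for XTH33, so the mock array lay above the IAA array for both. XTH16 passed for IAA with an intensity trend in the prior, with a filter at the 70th percentile or with a filter on the mean of the arrays (limma, adjusted p = 0.0127, 0.0371 and 0.0465), and its adjusted p over all alternatives reached 0.656 with untreated and mock as joint controls.

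CSLC04 had an IAA difference of 0.46 ± 0.14 (limma, adjusted p = 0.186), with ratios of 0.32, 0.26 and 0.80 in the 3 genotypes and 0.30 with mock. At the low end CSLA01 had -0.57 ± 0.14 for IAA and -0.66 ± 0.22 for mock (limma, adjusted p = 0.134 and 0.21), and all 4 sprayed arrays were below untreated. CSLC5 was likewise lower in all 4, at -0.30 ± 0.13 for IAA (limma, adjusted p = 0.311). In wild type XTH32 had ratios of -0.68 after mock and -0.53 after IAA, against -0.10 and 0.04 with IAA in arf6/arf6 ARF8/arf8 and the double mutant.

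**Figure D4:**
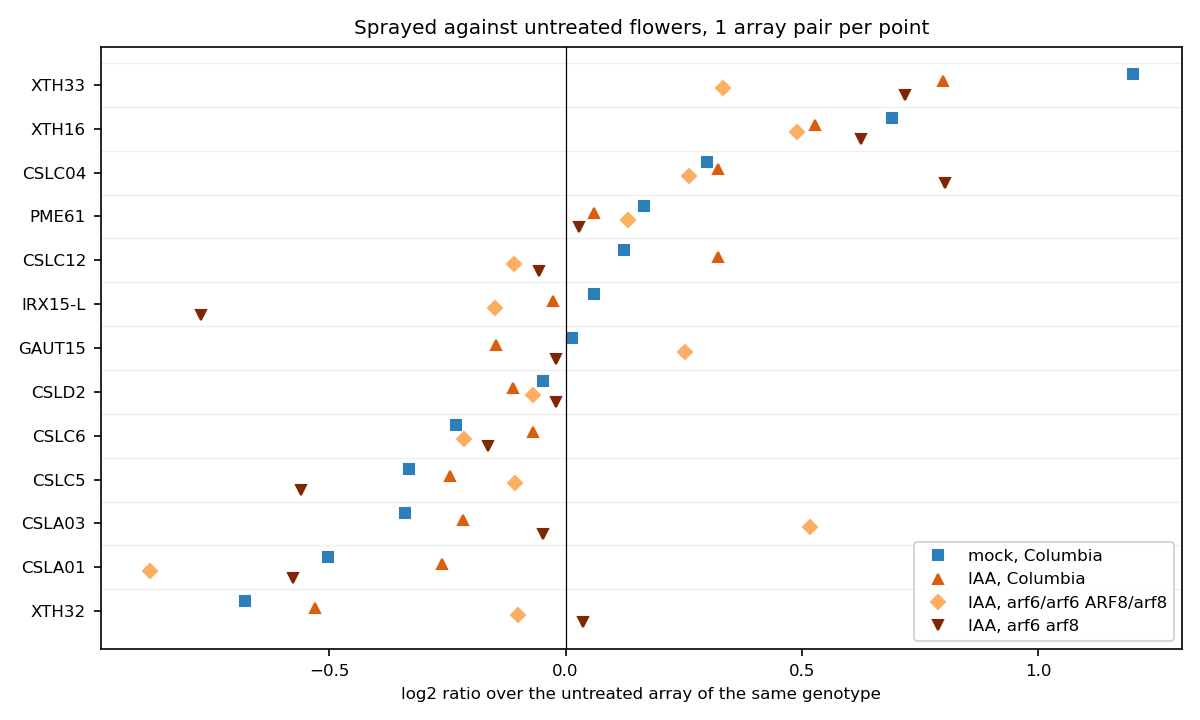
Log2 ratio of each sprayed array over the untreated array of the same genotype for the 13 genes (1 array pair per point; squares mock in Columbia, other symbols IAA in the 3 genotypes). XTH33 and XTH16 lie to the right of 0 in all 4 pairs, and CSLA01 lies to the left in all 4.

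A term added to the model asked whether arf6 arf8 flowers responded differently to IAA. Limma called 0 of 13 genes and 0% of all probe sets, with 2 of the 13 at an unadjusted p under 0.05 (11.2% of all probe sets), which is near the share among all. The 2 were IRX15-L at -0.68 ± 0.19 and CSLC04 at 0.51 ± 0.18 (limma, adjusted p = 0.405 and 0.438). For XTH16 the difference of responses was 0.12, with a 95% interval of -0.37 to 0.60, and for XTH33 it was 0.15, with an interval of -0.55 to 0.85.

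Few other wall genes were named on the array. Of 32 cellulose synthesis partners 1 was named on a tested probe set, COB, which encodes a surface protein needed for oriented cellulose deposition. COB gave 2648.4, 2290.4 and 2308.5 in wild type (untreated, mock, IAA), 1668.4 and 1646.9 in arf6/arf6 ARF8/arf8 and 1447.7 and 1585.2 in the double mutant. It fell in the double mutant by 0.71 ± 0.14 (limma, adjusted p = 0.0195). That call was lost without the untreated array of wild type or either double-mutant array (limma, adjusted p from 0.0606 to 0.103). Of 35 genes of pectin synthesis and breakdown 1 was named and tested, the polygalacturonase gene ADPG1, which acts in anther and fruit opening. ADPG1 gave 182.6, 77.9 and 147.4 in wild type, 189.5 and 154.8 in arf6/arf6 ARF8/arf8 and 413.9 and 346.6 in the double mutant, where it rose by 1.21 ± 0.13 (limma, adjusted p = 0.00211). ADPG1 exceeded the intensity limit on the double-mutant arrays alone and so was tested only because it is high there. ADPG1 also fell with mock, by 1.22 ± 0.17 (limma, adjusted p = 0.0413), with -0.23 at a floor of 157.1 (limma, adjusted p = 0.483) and adjusted p = 0.0592 to 0.0979 without wild-type untreated or a double-mutant array. Of 45 genes of hydroxyproline-rich glycoprotein synthesis 1 was named and tested, XEG113, an extensin arabinosyltransferase gene, at -0.28 ± 0.18 in the double mutant (limma, adjusted p = 0.326). No gene was named of 55 for hemicellulose and nucleotide sugars or of 29 for secondary walls and xylem.

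The intensity limit split the XTH family. Just inside it lay CSLA03, with a highest value of 270.8, and IRX15-L, at 292.7, and just outside lay XTH29, at 193.7, and XTH19, at 143.9. XTH18, XTH20 and IRX15 reached 65.1, 96.9 and 87.4, and XTH21 and XTH26 stayed at or below 19.2 on every array.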

How the data were processed

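Total RNA from flowers was labelled and hybridised to 7 single-colour Affymetrix arrays, 1 per group. The deposited values are linear intensity signals per probe set, made with MAS5 per the submitters' processing notes. After trimming 2% at either end the mean deposited intensity was 500.0 on all 7 arrays, and this scaling by the authors was kept. Detection calls and scaling factors were not used here.

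Probe sets were named through the platform annotation of 2016, with symbols updated through RefSeq TAIR10.1; of 22746 that are not controls, 13513 carry 1 symbol, 503 several, and 8730 have none listed here. Intensities were floored at the 25th percentile (64.9) and taken to log2. Probe sets whose highest array exceeded the 50th percentile (248.1) entered the fit by lmFit and eBayes (limma 3.58.1, R 4.3.3; 2 residual degrees of freedom, prior 4.945; 1 residual degree of freedom with the response term). The fit was also run on simulated data with independent noise and additive changes. Such data cannot show how it behaves where genotype and treatment do not add. The mock terms rest on 1 array and assume that it varies like the other 6.

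Genes named in each comparison are those past the threshold, at most 15 each way, or else the 3 largest each way; all 13 are given. The genes and lists were chosen with earlier results of these data known. The number of arrays limits the precision. Alternatives were other floors, filters and normalizations, an intensity trend, a joint control and each array left out; a filter on the mean over the arrays and the inclusion of RefSeq synonyms were chosen after seeing the data.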

Additional observations from a re-analysis of the deposited data

Results flagged for a closer look

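For 3 genes a pair of arrays moved at least 1.1-fold in opposite directions under the same contrast, and these differences were not tested. The 1.1-fold limit was chosen after the data were seen, when a higher limit had marked no gene. CSLA03 had a log2 ratio of IAA over untreated of -0.22 in wild type and 0.52 in arf6/arf6 ARF8/arf8. GAUT15 had -0.15 and 0.25 in the same pairs. For XTH32 the ratio of arf6/arf6 ARF8/arf8 over wild type was -0.19 in untreated flowers and 0.24 with IAA. Each of these ratios rests on 1 array per side.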

How the results depend on the processing

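For the 13 genes, 43 differences were recomputed under 589 alternatives. Of these 557 kept direction and call, 20 lost a call, 9 gained one and 3 changed sign. Most of the 43 were not called in the main fit, so keeping the call there meant staying uncalled. All 20 losses fell on differences that were called. Leaving out the mock array could not change the genotype comparisons. In the double mutant the count of 6 was 0 with no filter on dim probe sets. With an array left out all 6 kept their sign. CSLA03, XTH33 and CSLC5 lost the call without the double-mutant IAA array, at -1.08, -1.16 and -0.69 on the log2 scale. Leaving out any array but mock lowered the calls over all probe sets in this comparison too, most of all without that IAA array. In arf6/arf6 ARF8/arf8 the count of 1 was 0 with no filter and with the floor raised to the 40th percentile, 2 after quantile normalization, with an intensity trend and with RefSeq synonyms included (chosen after seeing the data), and 0 to 1 with an array left out. Between the mutants it was 0 with no filter and 0 to 1 with an array left out. With the filter set on the mean of the 7 arrays (chosen after seeing the data), which 9 of the 13 pass, 5 were called in the double mutant, CSLA01, CSLC04, CSLC5, CSLC6 and PME61, among 19.9% of 11451 probe sets; CSLA03, XTH33, GAUT15 and IRX15-L have no value there. That filter took the calls over all probe sets from 98 to 28 for mock, from 141 to 215 for IAA and from 360 to 557 for arf6/arf6 ARF8/arf8. For IAA the count of 0 was 2 with an intensity trend and 1 with the filter raised to the 70th percentile or set on the mean, and for mock 0 to 1 with an array left out, the 1 being XTH33 without the wild-type IAA array or either array of arf6/arf6 ARF8/arf8. For 14 called differences of genes outside the 13, 163 of 213 alternatives kept the call and 50 lost it, 13 of them with no filter. These 14 take in calls not described above, those of SWEET9, AMS and SPT and of ADPG1 between the mutants. Stability differed among them: SWEET9 lost the call in 1 of 16 alternatives in each comparison, ADPG1 with mock in 6 of 12 and ATPMEPCRB in 11 of 14. IRX15-L in arf6/arf6 ARF8/arf8 was -0.0032 to 0.43 with an array left out. The response difference of XTH33 was -0.32 with the higher floor and -0.078 after quantile normalization. Without a filter more dim probe sets are tested. The calls over all probe sets then went from 2227 to 2 for the double mutant and from 98 to 906 for mock. The causes of the changes between settings were not tested. Leaving out any array but the mock array leaves 1 residual degree of freedom. The labels number no replicates; the genotype term pairs the untreated and IAA arrays of each genotype.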

Other observations

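XTH19, below the intensity limit, had values of 143.9 untreated, 113.5 after mock and 108.4 after IAA in wild type, 30.5 and 41.7 in arf6/arf6 ARF8/arf8, and 10.9 and 14.1 in the double mutant. All 4 mutant arrays lay below the floor of 64.9, so wild type was at least 1.86-fold higher than the double mutant. With no filter its adjusted p was 0.152 (limma), on the floored scale. Its neighbour XTH18 was at 65.1 or less on all 7 arrays. XTH29 gave 95.5 to 193.7 in wild type, 110.4 to 140 in arf6/arf6 ARF8/arf8 and 53.5 and 64.2 in the double mutant (limma with no filter, adjusted p = 0.159).

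Some genes of the same families are on the array under another symbol and were looked up after the data were seen. EXGT-A3, listed in RefSeq as XTH27 and known for a role in leaf vein formation, gave 1166.5 untreated, 2035.4 after mock and 1889.1 after IAA in wild type, 1466.5 and 2111.4 in arf6/arf6 ARF8/arf8, and 2101 and 3126.2 in the double mutant. It rose 1.73-fold in the double mutant (limma, adjusted p = 0.0107), where XTH33 fell. That call was lost in 4 of 16 alternatives: 0.0503 without wild-type untreated, 0.0622 without the double-mutant IAA array, 0.0859 with no filter and 0.183, at 0.56 on the log2 scale, with untreated and mock as one control. Like XTH33 and XTH16, EXGT-A3 was higher in each sprayed array than in the untreated array of its genotype, with an IAA difference of 0.60 ± 0.11 (limma, adjusted p = 0.0639). The pectin methylesterase gene ATPMEPCRB, also PME41, gave 195.3 to 267.7 in wild type, 108.3 and 115.5 in arf6/arf6 ARF8/arf8, where it fell 1.79-fold (limma, adjusted p = 0.0454, and between 0.0525 and 0.285 in the 11 alternatives that ended the call), and 123.6 and 175.9 in the double mutant. ATPMEPCRB passed the intensity limit through the wild-type mock array alone. GUT2, the xylan synthesis gene also called IRX10, gave 274.7 to 396.1 in wild type, 359.6 and 376.7 in arf6/arf6 ARF8/arf8, and 306.8 and 383.6 in the double mutant, with no call in either (limma, adjusted p = 0.265 and 0.306).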
